A study of Mus musculus with 5 samples.

Results

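The distal telomeric end of mouse chromosome 7 was described here as seen from the β-major globin promoter by 4C. It comprised 11265 of the 57765 chromosome 7 probes on the array. Probes of chromosome 7 were ranked by the running number in their identifiers, and ranks 46501 to 57765 were taken. The viewpoint, rank 37873, was selected on measured signal, where the running mean of the chromosome over the 5 arrays was highest. The bounds themselves were set by rank. With 29 probes for about 60 kb and the viewpoint set at 98 Mb, the stretch ran from an estimated 115.9 to 139.2 Mb and began 17.9 Mb telomeric of the viewpoint. These positions are estimates, because the position listed for every probe was 0. No gene names or sequences could therefore be assigned to any place, and places are named by their estimated Mb.

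All cells came from livers of mouse embryos at 14.5 dpc and were kept in culture, and every 4C template was cut with HindIII and NlaIII. Of 5 arrays, 2 were untreated (A and B), 2 came from cells given α-amanitin for 5 h (A and B) and 1 from cells given 100 µM DRB for 3 h. According to the methods the untreated cells were also cultured for 5 h. The unit of the α-amanitin concentration differs between the labels and the methods, so no concentration is given. Fetal liver at this stage holds mainly erythroid cells beside other cell types, and 4C DNA carries no expression markers by which the cell type could be checked. The A arrays were labelled with Cy3 and the B and DRB arrays with Cy5, so replicate letter and dye cannot be told apart.

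In 4C, cross-linked chromatin is cut and ligated, and the fragments joined to one chosen fragment are amplified and hybridized to an array, so that clusters of bright probes mark DNA that was often near it in the nucleus. The β-globin locus is highly transcribed in fetal liver erythroid cells. Mouse chromosomes have their centromere at one end, so the stretch described here lies toward the opposite end of the chromosome. α-amanitin binds RNA polymerase II and blocks transcription, whereas DRB inhibits the kinase that releases the polymerase into elongation.

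The deposited values were scanner intensities without normalization, and arrays give no read depth, so the number of arrays limits the precision. The median signal of the stretch was 523 and 501 in untreated A and B, 724 and 492 in α-amanitin A and B and 543 in DRB. The α-amanitin A array also needed the lowest signal, 2578, for a probe to be among the brightest 5% of chromosome 7, against 7810 to 9695 in the other arrays. Its median was highest and this limit lowest, so it stood apart from the other 4 arrays. Its very brightest signals were not low, and its highest running mean in the stretch, 17221, exceeded that of every other array. Results that rest on it are given for both α-amanitin arrays. Between 0 and 17 probes of the stretch per array were at 65535, the highest signal in any file, and the 17 were those of α-amanitin A.

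The mean signal of the stretch was slightly below that of the chromosome in every array. The mean signal was 0.965 and 0.985 of the chromosome 7 mean in untreated A and B, 0.926 and 0.941 of it in α-amanitin A and B and 0.952 of it in DRB. The chromosome 7 mean includes the very bright surroundings of the viewpoint. On the log2 scale the mean probe signal of the stretch relative to chromosome 7 was 0.032 and 0.067 in the untreated arrays, 0.019 and 0.018 in the α-amanitin arrays and 0.057 in DRB. The α-amanitin mean was 0.031 lower than the untreated mean, with no overlap between the groups (exact two-sided permutation test over 4 arrays, p = 0.33, the smallest this design allows). The labels do not say that replicates came from separate litters or cultures, so p-values here measure the spread between these arrays.

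Within the stretch the signal was uneven. In bins of 483 probes, about 1 Mb each, the bin centred at 120.3 Mb had a mean signal of 1.83 and 1.8 times the chromosome mean in untreated A and B, 1.08 and 1.83 times in α-amanitin A and B and 1.54 times in DRB. The bin at 130.3 Mb had 1.6 and 1.47 times in untreated A and B, 1.75 and 1.49 times in α-amanitin A and B and 1.18 times in DRB. Thus α-amanitin A was the lowest array in the first bin and the highest in the second, while α-amanitin B stayed within the untreated range in both. The bin at 123.3 Mb, between these crests, fell to between 0.367 and 0.594 of the chromosome mean in the 5 arrays. From 9 to 11 of the 23 bins lay above the chromosome mean in each array.

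**Figure D1:**
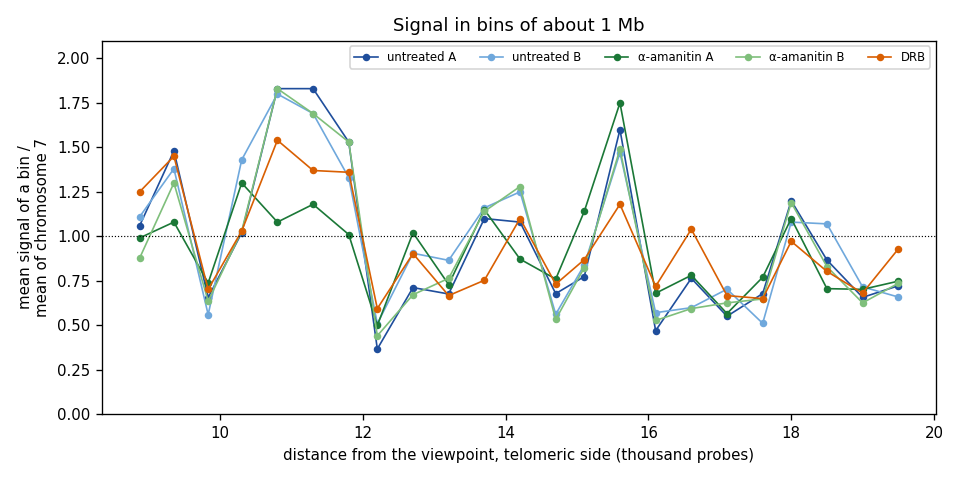
Mean signal of each bin of 483 probes divided by the mean of chromosome 7 (y axis) against distance from the viewpoint along the probe order (x axis), 1 line per array. Crests near 120.3 and 130.3 Mb were present in untreated A, untreated B and α-amanitin B, whereas α-amanitin A reached only 1.08 times the chromosome mean in the 120.3 Mb bin.

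A window, the running mean of 29 neighbouring probes, was called positive in an array where it passed the threshold at which shuffled probes made up under 5% of passing windows. The thresholds were 6834 and 7018 signal units for untreated A and B, 7799 and 7022 for α-amanitin A and B and 8045 for DRB. Of the 11237 windows of the stretch, 307 (2.73%) passed in untreated A and 342 (3.04%) in untreated B, against 3.82% and 4.08% of chromosome 7. After α-amanitin 129 windows (1.15%) passed in A and 286 (2.55%) in B, against 2.27% and 3.73%. In DRB 151 windows (1.34%) passed, against 1.96%. The share was below that of the chromosome in all 5 arrays. With 967 probes on each side of the viewpoint left out, the chromosome 7 shares were 2.42%, 2.61%, 1.36%, 2.44% and 0.993% in the same order, so the stretch was then higher in untreated A, untreated B, α-amanitin B and DRB and lower in α-amanitin A. The median window of the stretch stood at 0.138 to 0.193 of its threshold.

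**Figure D2:**
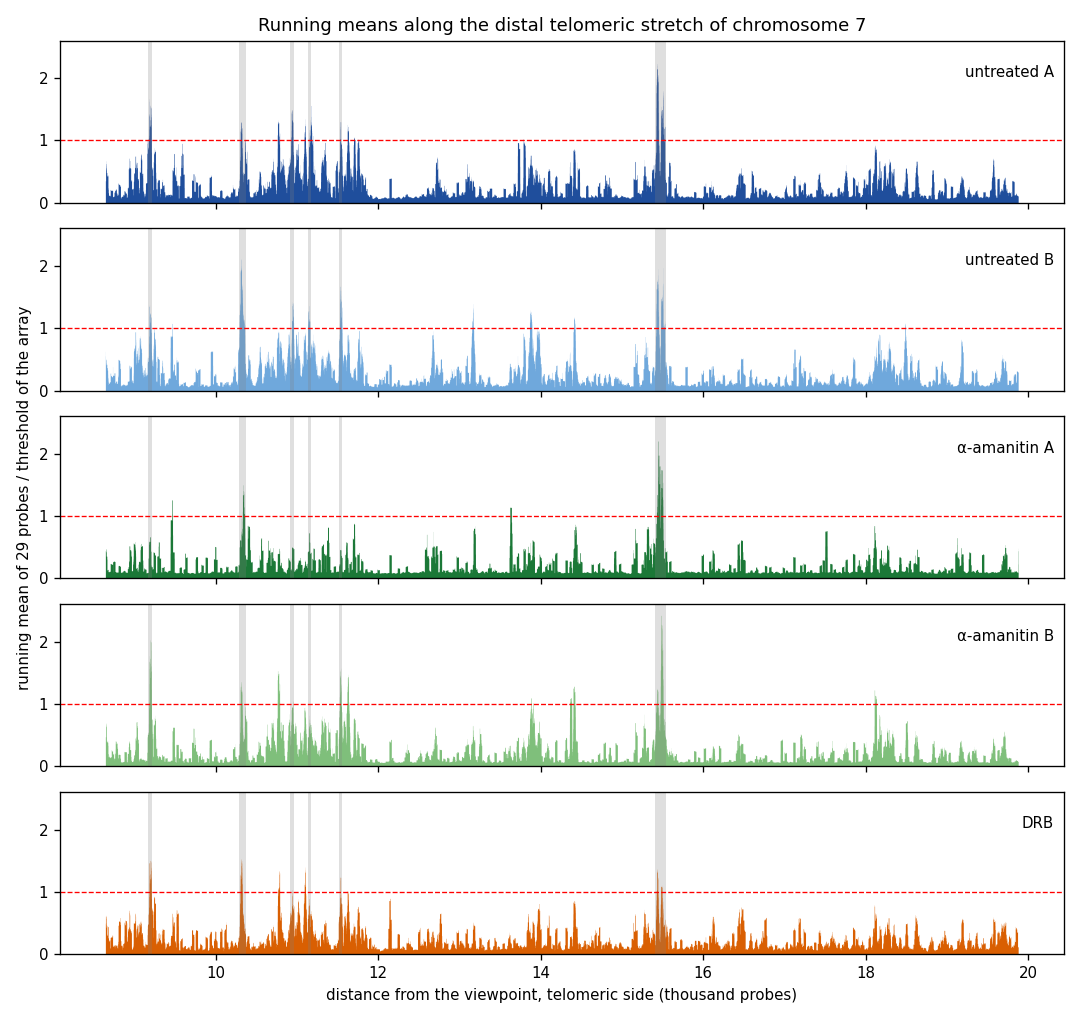
Running means of 29 probes divided by each array's threshold (y axis) along the stretch, by distance from the viewpoint along the probe order (x axis), 1 panel per array. The tallest cluster in untreated A, α-amanitin A and α-amanitin B lies near 130 Mb and reaches 2.23, 2.21 and 2.42 times the threshold, and most windows lie far below it.

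Windows starting at the inner edge of the stretch were below threshold, and its outer edge was the last chromosome 7 probe. The window starting just before the inner edge had running means of 2858, 4439, 3491, 4118 and 4898 in untreated A and B, α-amanitin A and B and DRB. The first window inside the stretch had 2426, 4407, 3489, 3353 and 4912 in the same order. All were below the thresholds. These windows overlap almost entirely, and windows lying mostly outside the edge were not compared.

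An equal number of probes at the same probe distance on the centromeric side of the viewpoint, ranks 17981 to 29245, had fewer windows above threshold. The shares there were 2.05%, 2.13%, 1.08%, 2.18% and 0.374% in untreated A and B, α-amanitin A and B and DRB. The telomeric stretch was higher in 5 of 5 arrays, by a mean of 0.60 percentage points (SD 0.38, n = 5, exact two-sided sign-flip permutation test, p = 0.0625, the smallest this design allows). The difference was widest in DRB, at 0.97 points, and narrowest in α-amanitin A, at 0.07 points. These shares count each array alone, and windows that passed in both arrays of a group are given below. Probes among the brightest 5% of the chromosome, called bright below, made up 4.68% to 5.05% of the telomeric stretch and 3.63% to 3.96% of the centromeric one. That difference averaged 1.12 points (SD 0.24, n = 5, 5 of 5 arrays, exact two-sided sign-flip permutation test, p = 0.0625). Of the running numbers spanned, 83.5% had a probe in the telomeric stretch and 81.1% in the centromeric one.

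**Figure D3:**
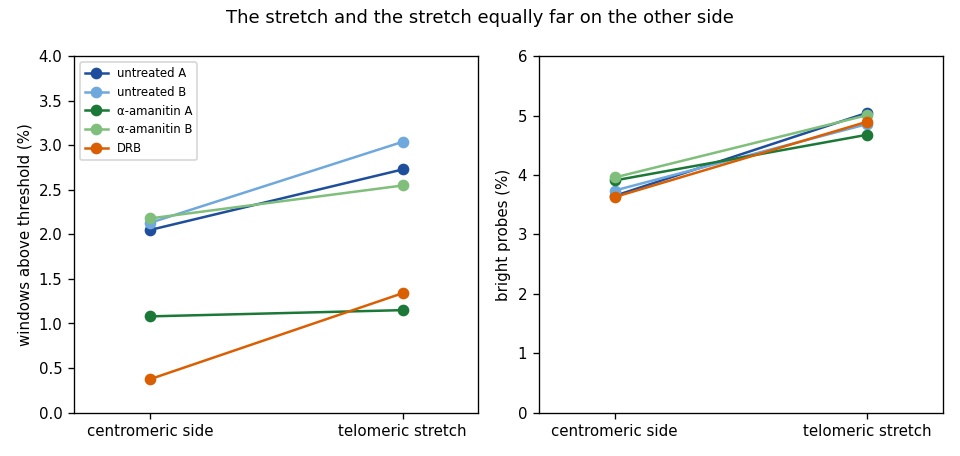
Percent of windows above threshold and percent of bright probes (y axes) in the centromeric stretch and the telomeric stretch equally far from the viewpoint (x axis), with a line joining the 2 values of each of the 5 arrays. Every line rises toward the telomeric stretch, by 0.07 to 0.97 points for windows.

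Both untreated arrays passed in 165 windows of the stretch (1.47%), against a background of 2.98% of chromosome 7 windows, or 1.68% without the surroundings of the viewpoint. Both α-amanitin arrays passed in 47 windows (0.418%), with a background of 1.62%, or 0.791% without those surroundings, and 44 of these were also positive in both untreated arrays. Of the 165 windows, 94 also passed in DRB. All 5 arrays passed in 32 windows (0.285%), against 1.12% of chromosome 7, or 0.47% without the surroundings of the viewpoint. In the centromeric stretch equally far away 158 windows (1.41%) passed in both untreated arrays and 67 (0.596%) in both α-amanitin arrays. Of those 158 windows, 42 also passed in DRB, and 22 windows (0.196%) passed in all 5 arrays. The telomeric stretch was thus slightly higher for both untreated arrays, higher for all 5 and lower for both α-amanitin arrays. Windows overlap by all but 1 probe and are not independent, so these counts describe the length of the clusters.

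Joined without gaps, the 165 windows formed 11 of the 62 untreated double positive regions of chromosome 7. Of the 11 regions, 2 had a window above threshold in both α-amanitin arrays, below the 46.8% of all 62. A further 6 were positive in a single α-amanitin array, and 3 in none, against 17.7% of the 62. Taken array by array, 4 and 6 regions were positive in α-amanitin A and B and 6 in DRB, against 53.2%, 75.8% and 53.2% on the whole chromosome. Away from the surroundings of the viewpoint 20 of 47 regions passed in both α-amanitin arrays and 8 in neither. Only untreated arrays chose the regions, so no test of a fall in the treated arrays was made. Without α-amanitin A the number of regions found in the remaining α-amanitin array was 6, and without α-amanitin B it was 4.

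Some of these regions share probes. Joined where windows share probes, they formed 7 of the 32 places of chromosome 7, at an estimated 117.0, 119.3, 119.4, 120.6, 121.1, 121.9 and 130.0 Mb. Estimated from the running numbers themselves, in which numbers without a probe also count, the first and last of these lay at 115.5 and 126.7 Mb. Thus 6 of the 7 places lay between 117.0 and 121.9 Mb, 1 lay at 130.0 Mb, and none lay beyond it. A single place, at 130.0 Mb, had a window above threshold in both α-amanitin arrays, against 50% of the 32 places. The place at 119.3 Mb joined it with windows of 59 probes or quantile normalized signals, and that at 120.6 Mb with a running median. The place at 121.1 Mb had none in either, against 12.5%. Single arrays gave 2 and 5 places in α-amanitin A and B and 5 in DRB, against 56.2%, 81.2% and 68.8%. On the centromeric side the stretch equally far away held 5 places, 3 of them positive in both α-amanitin arrays.

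**Figure D4:**
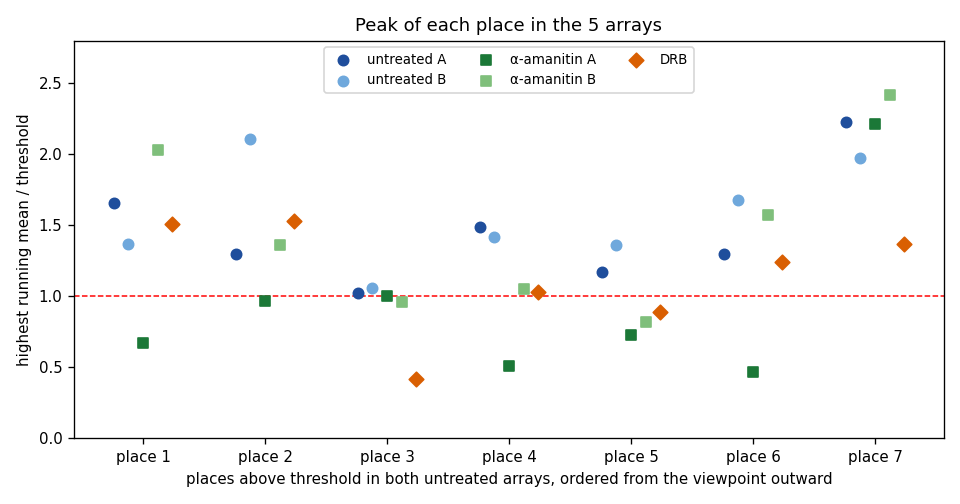
Highest running mean of each of the 7 places divided by the array's threshold (y axis), with places ordered from the viewpoint outward (x axis) and 1 symbol per array; the dashed line is the threshold. At place 7, 130.0 Mb, all 5 arrays lie above the line, from 1.37 to 2.42, while α-amanitin A lies below it at 5 of the 7 places.

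The place at 130.0 Mb was the widest, with 138 probes and 79 windows positive in both untreated arrays. Its highest running mean was 15257 and 13825 in untreated A and B, 17221 and 17013 in α-amanitin A and B and 11060 in DRB. Both α-amanitin arrays thus exceeded both untreated arrays in signal units, and DRB was the lowest. It held the highest running mean of the stretch in untreated A and both α-amanitin arrays, while in untreated B and DRB the place at 119.3 Mb peaked higher. Relative to the thresholds the peaks were 2.23, 1.97, 2.21, 2.42 and 1.37, and there the α-amanitin and untreated arrays overlapped. With quantile normalized signals the log2 mean of the place differed by -0.07 between α-amanitin and untreated arrays, a difference smaller than the gaps of 0.19 between the untreated and 0.10 between the α-amanitin arrays. The DRB array was 1.01 below the untreated mean on the same scale, with no DRB replicate to set against it.

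The cluster at 130.0 Mb had 2 crests, and the arrays did not place their peak on the same one. The centromeric crest, at 129.93 Mb, peaked at 2.23 and 1.95 times the threshold in untreated A and B, 2.21 and 1.25 in α-amanitin A and B and 1.37 in DRB. The telomeric crest, at 130.05 Mb, peaked at 1.80, 1.97, 1.75, 2.42 and 1.11 in the same order. Both crests passed in all 5 arrays, and α-amanitin B had the lowest centromeric and the highest telomeric crest of the 5. Of the other 3 regions cut from this cluster, none passed in both α-amanitin arrays. The one at 129.97 Mb passed in α-amanitin A, at 1.98 times the threshold, and those at 130.10 and 130.12 Mb passed in neither.

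**Figure D5:**
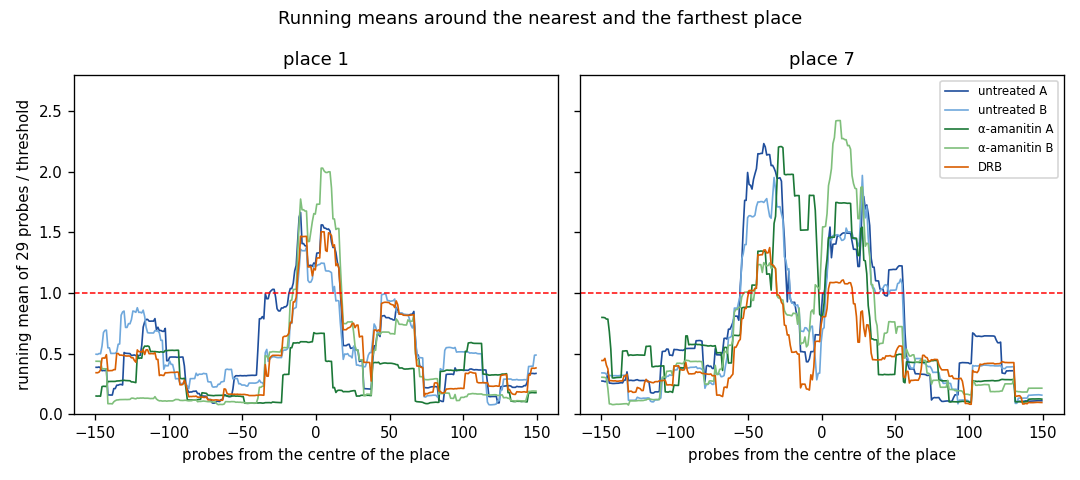
Running means of 29 probes divided by each array's threshold (y axis) against distance in probes from the centre of the place (x axis), for the places nearest to (117.0 Mb) and farthest from (130.0 Mb) the viewpoint; the dashed line is the threshold. Within the place at 117.0 Mb α-amanitin A stays at or under 0.67 of the threshold while α-amanitin B reaches 2.03, and at 130.0 Mb all 5 arrays pass.

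The place at 117.0 Mb, 54 probes long and nearest to the viewpoint, separated the α-amanitin arrays. Its highest running mean was 11378 and 9618 in untreated A and B, 5252 and 14257 in α-amanitin A and B and 12111 in DRB. In signal units α-amanitin B and DRB were higher than both untreated arrays, and α-amanitin A was lower than both. Relative to the thresholds DRB, at 1.51, lay between untreated A and B, at 1.66 and 1.37, and on the quantile normalized log2 scale it was 0.17 below the untreated mean. On the log2 scale the place differed by -1.72 between α-amanitin A and untreated A and by 0.55 between α-amanitin B and untreated B. The gap between the α-amanitin arrays, 1.77, was larger than the difference of -0.59 between the treatments.

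The place at 121.9 Mb also separated the α-amanitin arrays. It peaked at 8887 and 11769 in untreated A and B, 3631 and 11041 in α-amanitin A and B and 9953 in DRB. α-amanitin A stood at 0.47 of its threshold, and the other 4 arrays at 1.24 to 1.68 times theirs. The within-letter log2 differences were -1.44 for A and 0.02 for B.

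At 120.6 Mb both α-amanitin arrays were below both untreated arrays. The peaks were 10185 and 9988 in untreated A and B, 3947 and 7341 in α-amanitin A and B and 8314 in DRB. α-amanitin B and DRB just passed, at 1.05 and 1.03 times the threshold, and α-amanitin A reached 0.51. The log2 mean differed by -0.88 between the treatments, and the α-amanitin arrays differed from each other by 1.09.

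The place at 121.1 Mb, 35 probes long, was below threshold in all 3 treated arrays. Its peaks were 8024 and 9565 in untreated A and B, 5677 and 5741 in α-amanitin A and B and 7168 in DRB. The untreated peaks were 1.17 and 1.36 times the threshold, and the treated ones 0.73, 0.82 and 0.89. The treated and untreated arrays did not overlap. On the log2 scale α-amanitin was 0.65 lower, with gaps of 0.10 between the untreated and 0.35 between the α-amanitin arrays. The calls depended on the setting: with a running median the place passed in DRB and in 1 α-amanitin array, with 59 probes it passed in DRB, and with 15 probes or a false discovery rate under 0.01 it was not called in the untreated arrays. A separate cluster close by, at 121.0 Mb, passed in DRB and untreated A, at 1.40 and 1.34 times the threshold. There untreated B reached 0.94, α-amanitin A 0.30 and α-amanitin B 0.95. The values at 121.1 Mb are those of a place picked because both untreated arrays passed there.

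The neighbouring places at 119.3 and 119.4 Mb were separated by a few probes. At 119.3 Mb the peaks were 8859 and 14832 in untreated A and B, 7551 and 9527 in α-amanitin A and B and 12320 in DRB. Here α-amanitin A reached 0.97 of its threshold, the closest miss of the 7 places. When 29 probes on each side were added, α-amanitin A reached 11713, 1.50 times its threshold, 28 probes telomeric of the centre. The place therefore counted as single positive although α-amanitin A passed close by.

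The place at 119.4 Mb rested on 2 windows, with untreated peaks of 6937 and 7406. α-amanitin A just passed at 7825, α-amanitin B missed with 6738, and DRB was far below at 3403. The untreated peaks were 1.02 and 1.06 times the threshold, so this was the weakest of the places, and windows of 15 or 59 probes, a running median or a false discovery rate under 0.01 no longer called it in the untreated arrays.

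Bright probes were concentrated in the 7 places, as their selection by running means requires. In the 392 probes of the places 25.5% and 23% were bright in untreated A and B, 14% and 24.7% in α-amanitin A and B and 19.9% in DRB. Outside the places 4.2% to 4.36% of the stretch was bright in the 5 arrays. In the treated arrays, which did not choose the places, the share was thus lowest in α-amanitin A, and that of α-amanitin B lay within the untreated range. Of the 138 probes at 130.0 Mb, 8 were bright in all 5 arrays, and at the other places 0 to 4 were.

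A few probes carried much of each peak. In the highest window at 130.0 Mb the 5 brightest of 29 probes gave 60.1% and 70.4% of the summed signal in untreated A and B, 65.5% and 50.7% in α-amanitin A and B and 66.2% in DRB. At 117.0 Mb the shares were 68.2%, 70.9%, 87.1%, 66.2% and 61.8%. α-amanitin A had the highest share at 117.0 Mb, where 5 of its 29 probes were bright, against 7 to 11 in the other arrays. At 121.9 Mb a single probe gave 48.8% of the window in α-amanitin A and 16.0% to 22.3% in the others.

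Single bright probes were shared between arrays in part. Across the stretch 569 probes were bright in untreated A and 547 in untreated B, and 204 were bright in both, which is 35.9% of the first and 37.3% of the second. On all of chromosome 7, with the surroundings of the viewpoint included, the shared part was larger, 45.6% and 45.7%. Probes bright in both untreated arrays made up 2.28% of all chromosome 7 probes. The α-amanitin arrays shared 122 bright probes, 23.1% of those of A and 21.6% of those of B, against 27.9% of each on chromosome 7. Of the 1552 probes bright in any array, 891 were bright in 1 array and 57 in all 5. Of the bright probes of a treated array, 39.3% and 64.5% were bright in at least 1 untreated array for α-amanitin A and B, and 59.6% for DRB. On chromosome 7 these shares were higher, at 44.5%, 67.2% and 62.3%. After a bright probe the next probe in order was bright in 22.8% and 18.8% of cases in untreated A and B, 13.3% and 17.4% in α-amanitin A and B and 15.6% in DRB, against 4.68% to 5.05% of all probes of the stretch. Neighbours in this order lay a median of 458 spots apart on the slide.

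A further 15 places of the stretch passed in at least 1 array without a window positive in both untreated arrays, and 9 of them passed in 1 array alone. At 120.3 Mb the peak was 1.32 and 0.95 times the threshold in untreated A and B, 0.49 and 1.53 in α-amanitin A and B and 1.34 in DRB, so a near miss in untreated B kept it out of the list. At 122.1 Mb the values were 1.25, 0.91, 0.57, 1.48 and 1.02, with the same array missing by a similar margin. Treated arrays alone passed at 126.2 Mb, where α-amanitin A reached 1.14 and the other arrays 0.16 to 0.44, and at 135.5 Mb, where α-amanitin B reached 1.23 and the others 0.73 to 0.92. Each rested on a single array. No place passed in DRB alone.

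Of the positions in the stretch that the study had examined by cryo-FISH, an imaging method on thin nuclear sections, 5 were looked up by estimated position. For some of them the sources give positions that differ by more than the width of a window. The estimates here also move with how probes are counted, from 117.0 to 115.5 Mb for the first place and from 130.0 to 126.7 Mb for the last. No place was therefore assigned to any of these positions, and the search within 0.5 Mb below is narrower than these moves. In order from the viewpoint outward, the window at the position itself stood at 0.60 to 1.69 times the threshold over the 5 arrays at the first, 0.07 to 0.19 at the second, 0.36 to 0.74 at the third, 0.28 to 1.81 at the fourth and 0.09 to 0.12 at the last. The highest windows within 0.5 Mb, which are maxima over many windows, stood at 0.67 to 2.03, 1.30 to 2.11, 0.83 to 1.68, 1.37 to 2.42 and 0.42 to 0.61 in the same order. Thus at the second position, for which the sources differ, all arrays were low at the listing used and passed nearby. The low values there hold for that listing alone. At the last position no array passed at either scale.

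The order of windows was compared between arrays by Spearman's rank correlation of running means over the 11237 overlapping windows of the stretch, a description across windows of arrays that share probes. It was 0.676 for the untreated pair and 0.545 for the α-amanitin pair. Untreated A had 0.541 with α-amanitin A and 0.766 with α-amanitin B, and untreated B had 0.583 with α-amanitin A and 0.647 with α-amanitin B. All pairs with α-amanitin A lay between 0.541 and 0.589, and all pairs without it between 0.616 and 0.766. Averaged over the 4 pairs that set untreated against α-amanitin it was 0.634 (SD 0.0979), and over the 2 pairs with DRB it was 0.65. In the centromeric stretch the same 10 pairs ran from 0.569 to 0.729.

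Window by window, limma on log2 signals of 13261 non-overlapping windows over 7 chromosomes called 0 of the 387 windows of the stretch for α-amanitin, in either direction, at an adjusted p under 0.05. The background was 0% of all windows. At an unadjusted p under 0.05, 3 of the 387 windows were higher and 22 lower after α-amanitin, against 1.7% and 1.89% of all windows. The share of the stretch was thus below the background for higher windows and above it for lower ones. On chromosome 7 as a whole 31 of 1991 windows were higher and 67 lower at this level, so there too lower windows outnumbered higher ones. The stretch lay below its chromosome for higher windows and above it for lower ones. The median log2 difference was -0.04 in the stretch, -0.03 over chromosome 7 and 0.01 over all windows, with a median standard error of 0.44 per window, and 45% of the windows were higher, against 51.2%. The α-amanitin and DRB comparisons share the untreated arrays.

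The window of the stretch with the smallest p for α-amanitin lay at 120.8 Mb. Its log2 signal was 12.76 and 12.41 in untreated A and B, 10.85 and 10.94 in α-amanitin A and B and 12.12 in DRB. Both α-amanitin arrays lay below both untreated arrays and below DRB (log2 difference -1.69, standard error 0.35, limma adjusted p = 0.879). The next windows, at 119.9 and 120.5 Mb, differed by -1.72 (standard error 0.40) and -1.60 (standard error 0.38), each also with a limma adjusted p of 0.879. At 119.9 Mb the log2 signals were 10.79 and 11.41 in the untreated arrays, 9.50 and 9.27 in the α-amanitin arrays and 9.40 in DRB. All 3 windows lay between 119.9 and 120.8 Mb, and none passed the adjusted test. When the log2 signals of the probes were averaged instead, the differences at 120.8, 119.9 and 120.5 Mb were smaller, -0.50, -0.46 and -0.68.

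For DRB limma likewise called 0 of 387 windows, with a background of 0%. At an unadjusted p under 0.05, 11 of the 387 windows were higher and 17 lower, against 4.89% and 1.21% of all windows. That was again below the background of the 7 chromosomes for higher and above it for lower windows. On chromosome 7 as a whole 48 of 1991 windows were higher and 87 lower. The shares of the stretch were thus close to those of its own chromosome. The median log2 difference was -0.17, against 0.01 over all windows and -0.10 over chromosome 7, and 35.4% of windows were higher, against 51.4%. This fit takes the single DRB array to vary like the other groups.

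The window with the smallest p for DRB, at 126.5 Mb, had log2 signals of 12.85 and 12.61 in the untreated arrays, 11.91 and 11.76 in the α-amanitin arrays and 9.76 in DRB. DRB was far below the other 4 arrays (log2 difference -2.97, standard error 0.42, limma adjusted p = 0.381). The second window lay in the telomeric crest of the place at 130.0 Mb, with 13.73 and 13.60 in the untreated arrays, 13.18 and 13.59 in the α-amanitin arrays and 12.15 in DRB (log2 difference -1.52, standard error 0.25, limma adjusted p = 0.381). The third, at 116.3 Mb, was the only one of the 3 that was higher in DRB, with 10.32 against 9.04 to 9.42 in the other arrays (log2 difference 1.20, standard error 0.28, limma adjusted p = 0.449). From averaged log2 probe signals the differences of the 3 windows were -1.32, -1.25 and 0.40.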

How the data were processed

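4C templates of 5 samples were hybridized to arrays of 385000 probes, and the authors deposited the intensity of 1 dye per array, read with NimbleScan 2.3.19 per the labels, without background correction or normalization. According to the methods each array carried 2 samples in different dyes. Which samples shared an array was not established here, so some of these 5 may have. Probe positions were 0 in every row, so probes were ordered by running number and no build coordinates are given. Members and lists were chosen with earlier results of these data known.

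Running means of 29 probes used uncorrected intensity, with the threshold of each array from 100 shuffles of its chromosome 7 probes (false discovery rate under 0.05) (Python 3.11.15, numpy 2.4.6, scipy 1.17.1, pandas 2.3.3, matplotlib 3.10.9). Windows positive in both untreated arrays were joined without gaps (regions) or where they shared probes (places). limma 3.58.1 in R 4.3.3 (lmFit, eBayes with trend, Benjamini-Hochberg) tested log2 window means after quantile normalization of all probes, with all 5 arrays and group means. Both steps were also run on simulated data, but no result above rests on this. With 2 arrays or fewer per group, a window not called by limma may still have changed. Named were every untreated place, places of treated arrays alone, the 3 windows with the smallest limma p per drug and the positions examined by cryo-FISH. Other places of single arrays were named after their values were seen. Alternatives varied the window, running statistic, normalization, false discovery rate, joining, seed, filter, replicate block and arrays left out. The main limma fit did not pair arrays by letter. Over 387 windows the A minus B difference of the untreated arrays had a correlation of -0.20 with that of the α-amanitin arrays. That value does not settle whether the letters mark pairs, because letter and dye cannot be told apart.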

Additional observations from a re-analysis of the deposited data

How the results depend on the processing

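Of 218 alternative values, 177 stayed on their side of the threshold or close to the reported value, 41 moved and 0 reversed. The cause of the moves was not tested. All limma values are among the 177. A limma window counted as the same while its sign held and it stayed uncalled, even where its log2 difference shrank. Untreated regions (11) numbered 22 with 59 probes, 25 with a running median, 7 at a false discovery rate under 0.01, 7 joined where windows share probes, 6 where gaps of up to 100 kb were bridged, and 16 to 22 with 1 untreated array left out. Places (7) numbered 17 with a running median and 12 to 13 with 1 untreated array. Regions in both α-amanitin arrays (2) numbered 1 with 15 probes, 5 with a running median, 1 under both other joinings, and 2 to 6 with 1 array left out. Regions in a single α-amanitin array (6) numbered 15 with a running median. Regions in neither (3) numbered 11 with 59 probes, 5 with a running median, 1 at 0.01, 1 under both other joinings, and 5 to 11 with 1 array left out. Regions in DRB (6) numbered 15 with 59 probes, 14 with a running median, and 6 to 10 with 1 untreated array left out. Averaging log2 signals gave rank correlations of 0.785 for the untreated pair, 0.676 for the α-amanitin pair and 0.728 for α-amanitin with DRB. Kendall's tau gave 0.494, 0.388 and 0.453 for these, 0.463 for untreated with α-amanitin and 0.474 for untreated with DRB. The excess of windows over the centromeric stretch (0.602 points) was 1.8 with 59 probes, 1.67 with a running median and 0.313 at a false discovery rate under 0.01. With 59 probes the exact two-sided sign-flip permutation test gave p = 0.1250, above its smallest value, so not every array was higher in the telomeric stretch there. The mean log2 difference (-0.0308) was -0.0146 after quantile normalization and -0.048 to -0.0137 with 1 array left out. limma called 0 windows for both drugs under every alternative run. For α-amanitin, unadjusted p under 0.05 held for 25 windows, 13 with the replicate block, 39 with crossed letters as the block (chosen after seeing the data) and 61 without α-amanitin B. For DRB it held for 28 windows, 17 with the replicate block.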
